A study of Mus musculus with 4 samples.

Results

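Neutrophils that carried transcripts of Retnlg or Cxcr2 and few of the genes of the Ccl3, Hcar2 and Cd274 state were taken from 4 single-cell RNA libraries of mouse pancreatic tumours. A cell barcode was a member if at least 3 of 8 neutrophil genes (S100a8, S100a9, Retnlg, Cxcr2, Csf3r, G0s2, Hdc and Il1r2) had at least 1 UMI (unique molecular identifier, 1 captured transcript) and Retnlg or Cxcr2 was among them. Members held at most 1 UMI summed over C1qa, C1qb and C1qc, at most 1 over Krt8, Krt18 and Krt19, and none of Cd3e, and barcodes with 2 or more of Hcar2, Ccl3, Cd274 and Cxcl3 were dropped. Barcodes were kept from 500 UMIs and 250 genes upwards if mitochondrial transcripts made up no more than 20% of them, and 390 of the 14298 kept were members. Another 540 barcodes had at least 3 of the 8 neutrophil genes and passed the same exclusions, with or without Retnlg and Cxcr2, but held 2 or more of the 4 dropped genes, and they are called the Ccl3, Hcar2 and Cd274 class here.

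The labels give all 4 tumours as pancreatic ductal adenocarcinoma of the KPC46 organoid in the strain B6/129 F1J, so the groups share 1 tumour line. The vehicle group was 2 mice given Cremophor. The TAK-981 group was 2 mice that received TAK-981, which blocks the enzyme that activates the small ubiquitin-like modifier SUMO. Each library came from 1 mouse, and the labels give no age. Per the labels' protocols, red cells were lysed and a dead cell removal step was applied to samples of low viability, without saying which.

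Neutrophils leave the bone marrow as short-lived cells filled with granule proteins that are made in waves while they mature. CXCR2 is the receptor for chemokines such as CXCL1 and CXCL2 that draws mature neutrophils into blood and tissue, and Retnlg encodes a resistin-like secreted protein of mouse neutrophils. In tumours neutrophils can take on other states with high chemokine, glycolytic and PD-L1 expression, and they respond to type I interferon.

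The 4 libraries, in the order vehicle 1, vehicle 2, TAK-981 1 and TAK-981 2, held 183, 170, 14 and 23 members, so values for the TAK-981 mice rest on few cells. In that order the median UMIs per member were 657, 622, 1434 and 1439, against 2304, 4228, 5026 and 13117 over all kept barcodes. In the vehicle libraries 30.6% and 41.2% of members held under 600 UMIs, and none did under TAK-981, although the lowest deposited barcode of every library held 500 UMIs. Median mitochondrial shares were 0.966%, 0.723%, 6.67% and 1.63%. No member barcode occurred in more than 1 library. By Scrublet score, 3, 1, 0 and 2 members of vehicle 1, vehicle 2, TAK-981 1 and TAK-981 2 were called doublets. The number called in each library was set beforehand by an assumed rate of 0.8% per 1000 kept barcodes.

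Members showed neutrophil markers in every library. S100a8 and S100a9, which encode the subunits of calprotectin, had a UMI in 73.8%, 90.0%, 78.6% and 87.0% and in 78.7%, 94.1%, 92.9% and 95.7% of members of vehicle 1, vehicle 2, TAK-981 1 and TAK-981 2. The same genes had a UMI in 4.83%, 3.91%, 1.58% and 2.86% and in 5.07%, 4.81%, 1.58% and 4.02% of keratin-rich barcodes, which should lack them and had median depths of 14541, 9979, 14294 and 19514 UMIs. These 2 genes chose the members, so the shares describe the class and support nothing. Cxcr2 was found in 77.6%, 66.5%, 71.4% and 78.3% of members and Retnlg in 38.3%, 61.2%, 42.9% and 56.5%. Both were found in 29, 47, 2 and 8 members, Retnlg without Cxcr2 in 41, 57, 4 and 5, and Cxcr2 without Retnlg in 113, 66, 8 and 10, so most members met the rule through 1 of them. Per 10000 UMIs, Retnlg stood at 27.2, 108, 9.34 and 15.9 in the same order, with vehicle 2 highest.

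Retnlg lies at chr16:48872621-48874496 on the plus strand and Cxcr2 at chr1:74153989-74161246 on the plus strand (GRCm38).

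**Figure D1:**
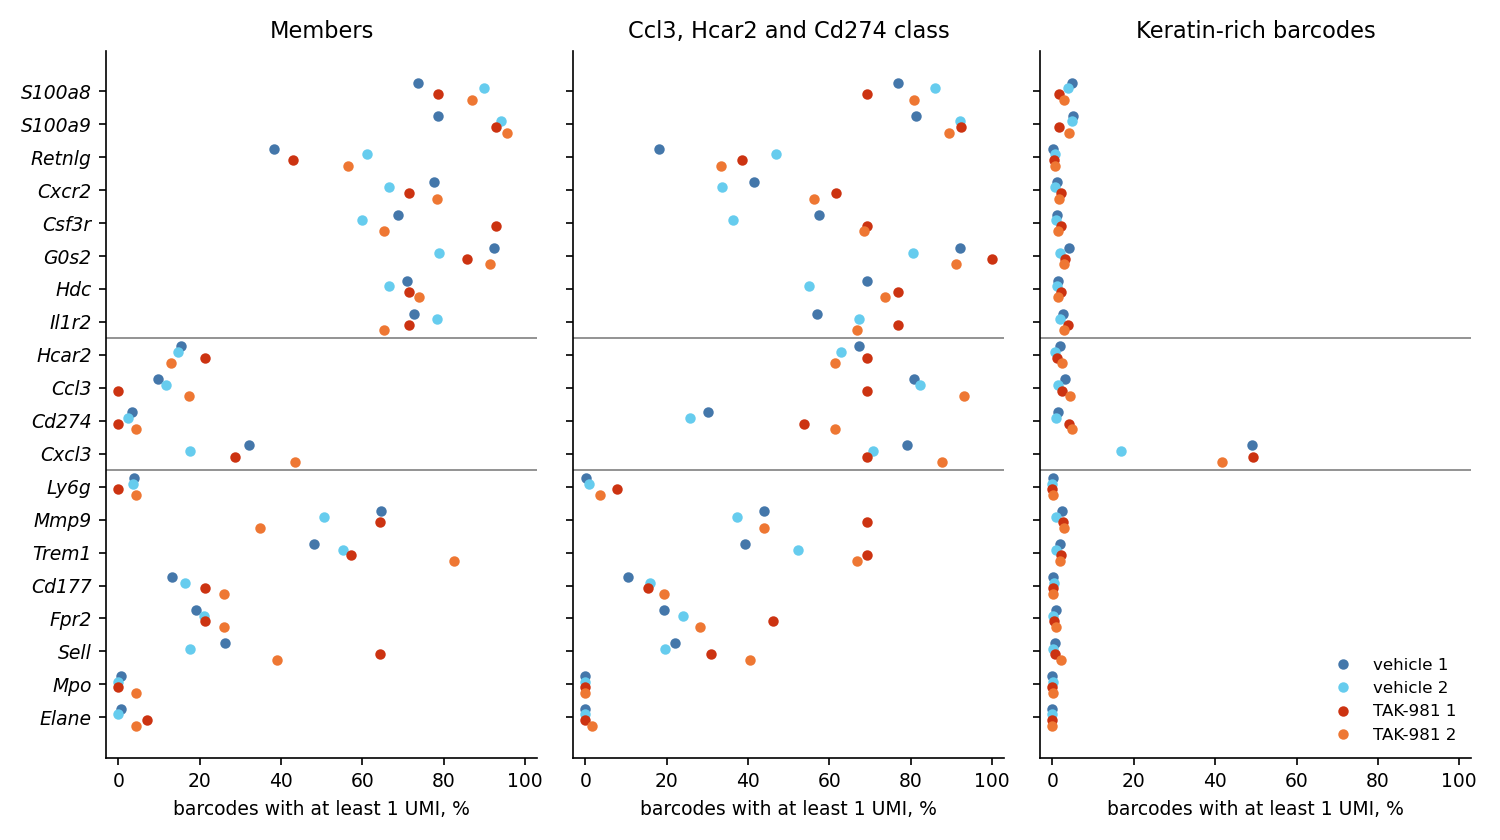
Share of barcodes with at least 1 UMI of each gene (x axis, percent) in members, in the Ccl3, Hcar2 and Cd274 class and in keratin-rich barcodes, 1 point per library. The 8 neutrophil genes above the first line and the 4 split genes between the lines chose the classes, and the genes below were not used. Mmp9 lies at 34.8 to 64.5% in members and Ly6g at 0 to 4.35%.

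Markers that the rule did not use were found in differing shares of members. Mmp9, the gelatinase of late granules, had a UMI in 64.5%, 50.6%, 64.3% and 34.8% of members, and Trem1, an activating receptor, in 48.1%, 55.3%, 57.1% and 82.6%. Ly6g, whose protein defines mouse neutrophils by antibody, was found in 3.83%, 3.53%, 0 of 14 and 4.35% of members. A count of 0 in 14 cells allows a share of cells with a UMI of up to 21.4% (3 counts of the total). Elane, Mpo, Prtn3 and Ctsg, azurophil granule genes of early precursors, were found in at most 1.09% of vehicle members and in 1 member or none of each TAK-981 library. Of 9 eosinophil markers 2 were found (Siglecf and Ear2), with 14 UMIs in vehicle 1, 8 in vehicle 2 and 0 in each TAK-981 library. Their sums were 0.789 and 0.670 per 10000 UMIs in vehicle 1 and vehicle 2, against 0.010 and 0.003 in keratin-rich barcodes. Of 10 basophil and mast cell markers 2 were found (Gata2 and Kit), with 2 UMIs in vehicle 1 and 1 in TAK-981 2. Epx, Prg2 and Ccr3 of the first list and Mcpt8, Cpa3 and Ms4a2 of the second were at 0 in all 390 members. Of 10 macrophage markers 7 were found and Ms4a7, Trem2 and Folr2 were at 0, with summed levels of 2.99, 3.60, 16.5 and 2.72 per 10000 UMIs in library order. All 10 monocyte markers, a list that includes the granule genes Lyz2 and Chil3, were found, with sums of 50.7, 29.1, 109 and 53.1 per 10000, against 1.58, 2.46, 3.68 and 4.66 in keratin-rich barcodes. Without the deep barcodes described below the monocyte sums were 44.9, 29.1, 7.75 and 13.4, and the part of these transcripts in the results was not tested.

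The threshold of the rule was met with room by most members. Those with exactly 3 of the 8 neutrophil genes numbered 5, 7, 0 and 1, while 63, 36, 4 and 14 barcodes with the same exclusions had 2 of the 8 and stayed outside. On the other side, 111, 79, 7 and 18 members held 1 of the 4 split genes, and 194, 76, 8 and 20 cells of the other class held exactly 2. The split therefore runs through a range of levels, and many cells lie near it.

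A group of 5 members lay far above the rest in depth, with 8282, 6759 and 6288 UMIs in vehicle 1, 22625 in TAK-981 1 and 12751 in TAK-981 2. The TAK-981 1 barcode alone held 55.6% of that library's member UMIs, with 303 UMIs of Lyz2, 26 of Ccr2, 4 of S100a8 and 0 of S100a9. The TAK-981 2 barcode held 28.9% of its library's member UMIs, with 574 UMIs of Camp, 270 of Ngp, 95 of Elane and 82 of Prtn3, and was among the doublets called by Scrublet score. The vehicle 1 barcode of 8282 UMIs held 30 UMIs of Col1a1, 28 of Col3a1, 66 of Spp1 and no S100a8 or S100a9. Since sums over cells follow such barcodes, the number of genes called is given with all members and without barcodes over 5000 UMIs. Most values of single genes and gene lists are given only without those barcodes. The limit was chosen after the data had been seen. Without barcodes over 5000 UMIs the members numbered 180, 170, 13 and 22.

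Fewer barcodes of the TAK-981 libraries were members. Members made up 4.00% (exact Clopper-Pearson 95% interval 3.45 to 4.61%) and 3.98% (3.41 to 4.61%) of kept barcodes with vehicle. With TAK-981 they made up 0.621% (0.340 to 1.04%) and 0.721% (0.457 to 1.08%). These intervals cover counting error only. The means were 3.99% ± 0.017 (SD, n = 2) and 0.671% ± 0.071 (SD, n = 2), a difference of -3.32 percentage points and a 5.94-fold lower share. Without barcodes over 5000 UMIs of any kind the shares were 5.33%, 7.29%, 1.16% and 3.07%, a 2.99-fold lower share. The groups did not overlap, and the exact two-sided permutation p was 0.333, the smallest that 2 against 2 libraries can give. Among barcodes with at least 1000 UMIs the shares were 0.904%, 0.460%, 0.648% and 0.561%, the groups overlapped, and the difference was -0.078 percentage points with an exact permutation p of 1. That limit kept 30, 16, 11 and 17 members, and the part of the depth gap in the difference was not tested.

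**Figure D2:**
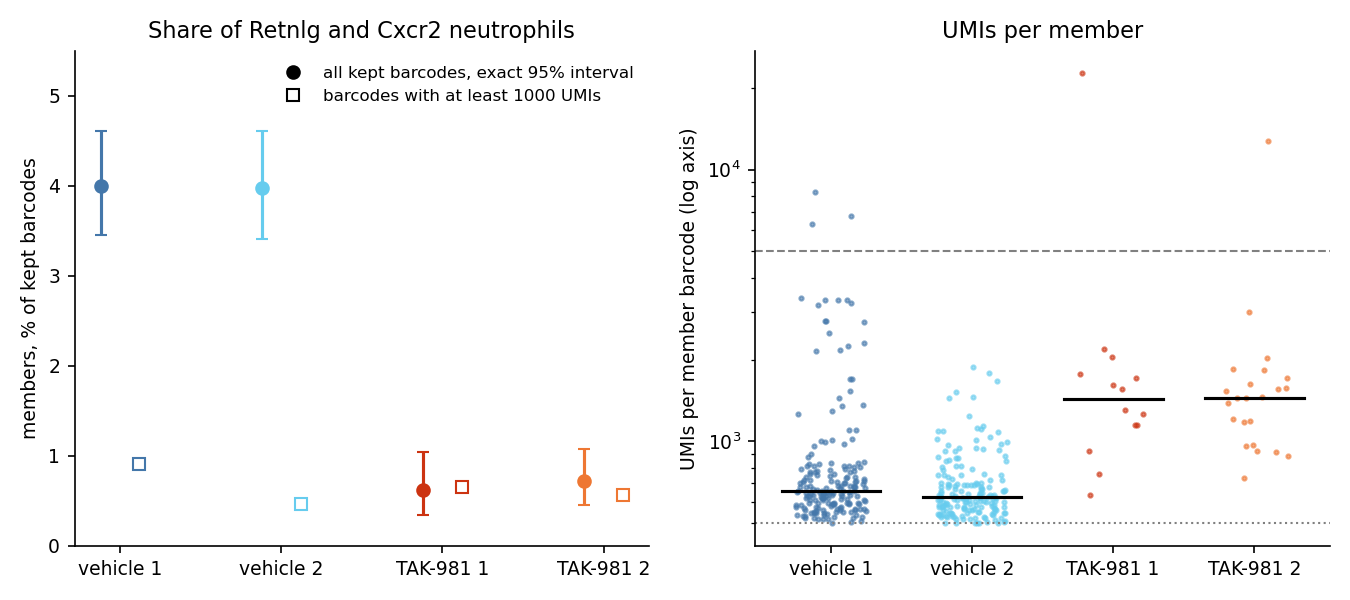
Left, members as a percentage of kept barcodes in each library, with exact 95% intervals, and the same share among barcodes with at least 1000 UMIs. Right, UMIs of every member barcode on a log axis, with the median as a black bar, the limit of 500 UMIs dotted and the 5000 UMI limit dashed. The vehicle shares of 4.00 and 3.98% come mostly from barcodes under 1000 UMIs, where the TAK-981 libraries have few members.

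As a part of both neutrophil classes, members made up 33.9%, 60.1%, 51.9% and 28.8% in the same order. TAK-981 1 lay between the vehicle values and TAK-981 2 under both, with means of 47.0% ± 18.5 (SD, n = 2) and 40.3% ± 16.3 (SD, n = 2) and an exact permutation p of 0.667. The difference between the groups was smaller than the spread between mice of either group. The sign of the -6.68 point difference turned to 6.41 without vehicle 2, to 4.87 without TAK-981 2 and to 5.28 with every barcode thinned to 500 UMIs.

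Members were not uniform, and 1 small set in vehicle 1 stood apart by its granule genes. Camp (cathelicidin), Ngp (neutrophilic granule protein) and Ltf (lactoferrin) encode proteins of the specific granules, which are made at the myelocyte and metamyelocyte stages. With a limit of 10 UMIs summed over these 3 genes, chosen after their values were seen, 17 of 183, 1 of 170, 0 of 14 and 1 of 23 members were granule-rich. In vehicle 1 none of the other 166 members had a UMI of Camp or Ngp, and 2 had one of Ltf. The 17 cells had a median depth of 2757 UMIs and the other 166 of 646 UMIs.

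The granule-rich cells carried few of the transcripts that marked the rest. Per 10000 UMIs in vehicle 1, Camp stood at 498 in the 17 cells and 0 in the other 166, Ngp at 407 and 0, and Lcn2, the siderophore-binding lipocalin, at 125 and 2.89. S100a8 stood at 1387 and 131 and S100a9 at 1610 and 225. In the opposite direction, the chemokine Cxcl2 stood at 5.69 in the granule-rich cells and 342 in the others, interleukin-1 beta (Il1b) at 6.91 and 244, and Ptgs2, the inducible cyclooxygenase, at 1.42 and 54.4. Cxcr2 stood at 0.81 and 17.2, and all 17 granule-rich cells entered through Retnlg. Cebpe, the transcription factor of specific granule genes, had a UMI in 8 of 17 and 0 of 166 cells, and the proliferation gene Mki67 in 2 of 17 and 2 of 166. As the cells were chosen by granule genes within 1 mouse, these values are a description.

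**Figure D3:**
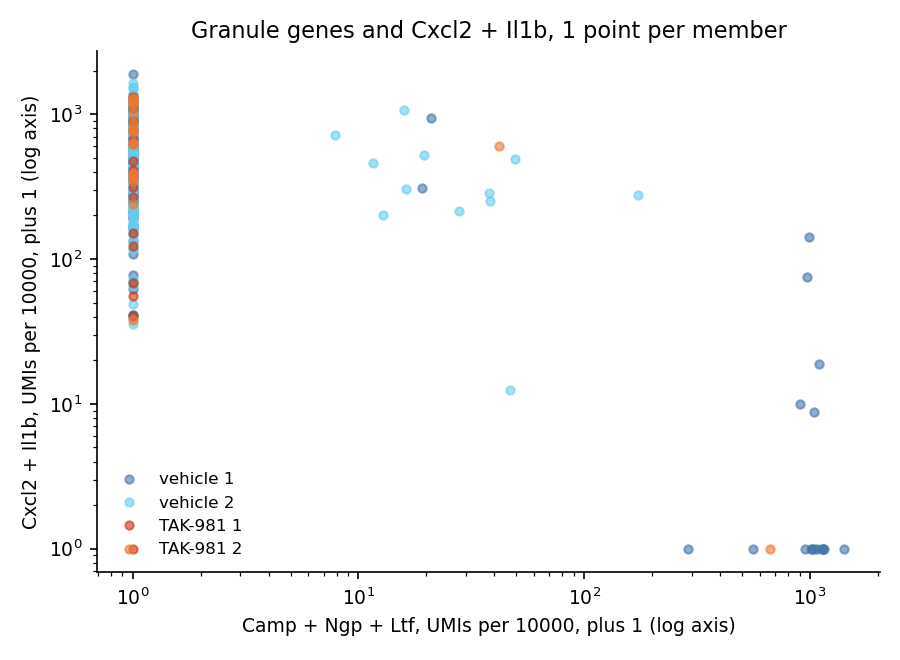
Each point is 1 member, with UMIs of Camp, Ngp and Ltf per 10000 (x, log axis, plus 1) against UMIs of Cxcl2 and Il1b per 10000 (y, log axis, plus 1), coloured by library. The 17 granule-rich cells of vehicle 1 lie to the right, and Cxcl2 and Il1b were each found in 4 of them. Most other members stand in the column with no granule UMIs.

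The 15 transcripts with the most UMIs over all members included those of calprotectin and of inflammatory mediators. S100a9 stood at 609, 446, 102 and 509 per 10000 UMIs, Cxcl2 at 249, 328, 105 and 263, and Il1b at 178, 204, 161 and 236, in the order vehicle 1, vehicle 2, TAK-981 1 and TAK-981 2. Fth1, the ferritin heavy chain, Srgn, the granule proteoglycan serglycin, and G0s2, an inhibitor of triglyceride lipase, were also among the 15 highest. TAK-981 1 was lowest for S100a9 and Cxcl2 in these sums, which hold the deep Lyz2 barcode. Gm42418, a gene model that overlaps ribosomal RNA sequence, had the most UMIs summed over the libraries, at 972, 333, 81.8 and 51.2 per 10000, and in vehicle 2 and both TAK-981 libraries S100a9 stood above it.

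To ask how TAK-981 changed the members, UMIs were summed per library and tested with edgeR's quasi-likelihood test. With all members, 0 of 2190 genes passed a Benjamini-Hochberg adjusted p of 0.05 (0% called), 328 genes (15% of those tested) had an unadjusted p below 0.05, and DESeq2 called 22. Without the 5 deep barcodes, 84 of 1797 genes passed (4.67% called), 42 higher and 42 lower under TAK-981 (2.34% each), and DESeq2 called 48. The calls without deep barcodes rest on both TAK-981 mice: 0 genes passed without TAK-981 1 and 0 without TAK-981 2, with 281 and 234 genes at an unadjusted p below 0.05, and 87 and 44 passed without vehicle 1 and vehicle 2. The CPM values below are UMIs scaled to counts per 1000000 of the library's TMM-adjusted total, in members of up to 5000 UMIs, and each p rests on the spread between 2 mice per group.

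Type I interferon response genes were higher in the members of both TAK-981 mice. Of 27 list genes tested, 15 rose and 0 fell without the deep barcodes, with a median log2 fold change of 2.41 against -0.10 over all 1797 genes. Of these 27, 26 had a positive log2 fold change and 1 a negative one. Ifitm6, also on the list, ran from -2.94 to -0.18 there when 1 library was left out. With all members 0 of 29 passed, but 27 of 29 had a positive log2 fold change, with a median of 1.73 against 0.00 over all genes, and 17 had an unadjusted p below 0.05. Those that rose were Ifit3, Rtp4, Ifit1, Zbp1, Rsad2, Isg20, Irf7, Oasl1, Irf9, Slfn4, Isg15, Oasl2, Trim30a, Ifitm3 and Ly6e. Ifitm1, Ifitm2 and Slfn2, abundant list members, had log2 fold changes of 0.33, 0.95 and 0.57 and did not pass.

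Rtp4 (chr16:23520291-23614222, plus strand, GRCm38), an interferon-induced chaperone of membrane receptors, had CPM values of 65.0 and 9.30 with Cremophor, against 479 and 1517 in the TAK-981 mice. The lowest TAK-981 value was above the highest vehicle value, as for 20.7% of all genes tested (49.2% had no overlap in either direction), with a log2 fold change of 4.69 ± 0.69 (SE, edgeR, adjusted p = 0.0005). Rtp4 had a UMI in 3.28% and 0.588% of vehicle members and in 35.7% and 82.6% of TAK-981 members. At 500 UMIs per barcode these shares were 2.73%, 0.588%, 21.4% and 56.5%, so the gap was present at equal depth. With all members its edgeR adjusted p was 0.0973.

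Ifit1 and Ifit3 encode proteins that bind viral RNA or its sensors and are among the strongest interferon-induced genes. Ifit1 had CPM values of 32.5 and 27.9 with Cremophor, against 479 and 686 in the TAK-981 mice, a log2 fold change of 4.22 ± 0.63 (SE, edgeR adjusted p = 0.000505). Ifit3 stood at 24.4 and 0 CPM in vehicle, from 3 and 0 UMIs, and at 240 and 975 CPM under TAK-981, with an edgeR adjusted p of 0.000566. Ifit3 has a near-identical copy, Ifit3b, so its counts are uncertain to the extent that reads were split between them. Both genes separated the groups without overlap.

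Isg15 encodes a ubiquitin-like modifier that is attached to other proteins during the interferon response, and Irf7 a transcription factor that amplifies interferon production. Isg15 had CPM values of 780 and 214 with Cremophor, against 2158 and 4046 in the TAK-981 mice (log2 fold change 2.64 ± 0.56 SE, edgeR adjusted p = 0.00727). Irf7 had CPM values of 163 and 18.6 with Cremophor, against 779 and 831 in the TAK-981 mice (log2 fold change 3.09 ± 0.64 SE, edgeR adjusted p = 0.0068). In each pair vehicle 1 was several-fold above vehicle 2, and both stayed below the TAK-981 libraries. Rsad2, the antiviral enzyme viperin, had CPM values of 195 and 37.2 with Cremophor, against 360 and 1698 in the TAK-981 mice, so TAK-981 2 was well above the other 3 libraries (edgeR adjusted p = 0.00701).

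Keratin-rich barcodes, the tumour epithelium among others, give the level of the same genes in keratin-positive cells. The level in other cell types was not measured. Per 10000 UMIs, Rtp4 stood at 0.02, 0.01, 0.11 and 0.07 there and at 0.45, 0.08, 2.95 and 9.52 in all members. Isg15 stood at 0.10, 0.05, 0.55 and 0.20 there and at 5.41, 1.92, 9.09 and 25.4 in members. Isg20 was of another kind, with a UMI in 50.4%, 47.6%, 60.7% and 73.3% of keratin-rich barcodes.

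**Figure D4:**
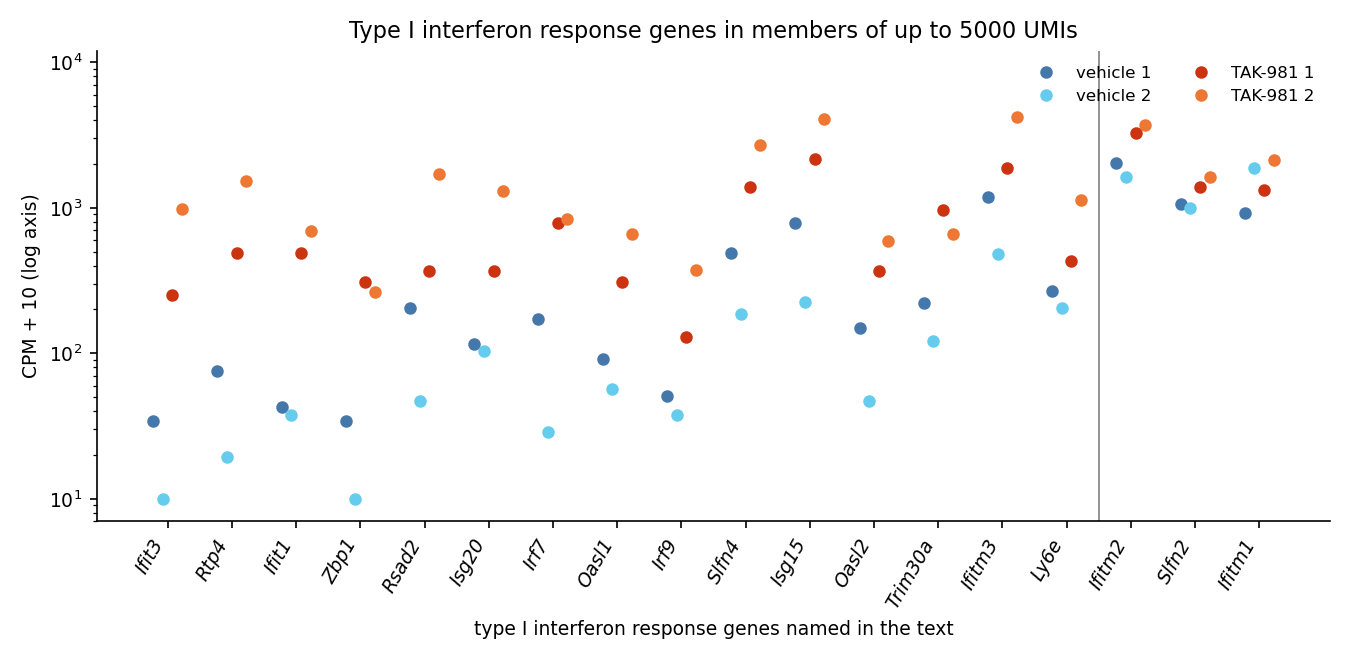
CPM plus 10 on a log axis for 18 of the 27 type I interferon response genes tested in members of up to 5000 UMIs, 1 point per library. The 15 genes left of the line passed an adjusted p of 0.05 and were higher in both TAK-981 libraries, and the 3 abundant genes on the right (Ifitm1, Ifitm2 and Slfn2) did not pass. The remaining tested genes did not pass and are not drawn, among them the 1 with a negative log2 fold change.

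The interferon-stimulated response element, a promoter site of interferon-induced genes, holds a pair of GAAA cores, searched here on both strands as GAAA, any 2 bases (NN) and GAAA. The promoters of 4 genes that rose are shown because they hold this motif, in a window from 250 bases before to 50 bases after the RefSeq start (GRCm38.p6), 5′ to 3′ on the gene's strand, with matches in capitals. The motif overlaps itself in the third.

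Ifit1, chr19:34640639-34640938, plus strand: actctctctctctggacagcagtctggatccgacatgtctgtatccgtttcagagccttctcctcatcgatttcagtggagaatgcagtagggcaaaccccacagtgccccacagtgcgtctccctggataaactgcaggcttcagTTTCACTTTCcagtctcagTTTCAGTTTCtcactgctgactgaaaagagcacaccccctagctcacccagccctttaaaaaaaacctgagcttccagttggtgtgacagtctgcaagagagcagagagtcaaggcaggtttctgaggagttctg

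Ifit3, chr19:34583279-34583578, plus strand: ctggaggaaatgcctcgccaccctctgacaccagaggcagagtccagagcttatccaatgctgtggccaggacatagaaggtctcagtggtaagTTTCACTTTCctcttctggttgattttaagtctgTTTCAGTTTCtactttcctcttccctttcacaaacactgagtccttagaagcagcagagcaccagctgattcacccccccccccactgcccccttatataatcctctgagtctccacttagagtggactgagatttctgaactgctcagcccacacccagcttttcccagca

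Isg15, chr4:156200769-156201068, minus strand: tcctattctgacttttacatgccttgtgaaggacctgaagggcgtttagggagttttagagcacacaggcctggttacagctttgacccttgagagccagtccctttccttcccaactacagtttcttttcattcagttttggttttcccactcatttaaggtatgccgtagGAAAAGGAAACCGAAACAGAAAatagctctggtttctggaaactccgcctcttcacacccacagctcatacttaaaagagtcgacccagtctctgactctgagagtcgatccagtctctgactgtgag

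Rsad2, chr12:26456403-26456702, minus strand: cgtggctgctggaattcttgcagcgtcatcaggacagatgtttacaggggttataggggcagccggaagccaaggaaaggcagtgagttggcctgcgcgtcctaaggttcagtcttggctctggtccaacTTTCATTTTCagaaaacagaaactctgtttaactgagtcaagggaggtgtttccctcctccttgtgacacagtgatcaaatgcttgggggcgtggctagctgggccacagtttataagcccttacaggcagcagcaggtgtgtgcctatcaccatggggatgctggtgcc

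The Ifit1 window holds 2 matches, Ifit3 2, Isg15 3 and Rsad2 1. Of all 32851 windows in the table, 3.44% held the motif, and by gene 5.56% of the 1421 tested genes with a window did. Among genes that rose, 8 of the 27 with a window held it (29.6%), namely H2-T23, Ifit1, Ifit3, Ifitm3, Isg15, Prss2, Rsad2 and Trim30a. Among genes that fell, 3 of 35 did (8.57%). A match describes letters in this window and shows no binding.

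Antigen presentation genes of class I moved in part. H2-T23 and H2-D1, heavy chains of nonclassical and classical class I molecules, rose, as 2 of 9 list genes tested. H2-D1 had CPM values of 918 and 744 with Cremophor, against 2218 and 2998 in the TAK-981 mice (log2 fold change 1.65 ± 0.45 SE, edgeR adjusted p = 0.0386). The light chain B2m had a log2 fold change of 0.79 and did not pass, nor did H2-K1. Of the interferon-gamma response list 0 of 5 tested passed, with 2 of 5 at an unadjusted p below 0.05.

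Atp1b3, which encodes the beta-3 subunit of the sodium-potassium pump, also rose. It had CPM values of 89.4 and 102 with Cremophor, against 2218 and 2203 in the TAK-981 mice, so replicates were close and groups far apart (log2 fold change 4.50 ± 0.52 SE, edgeR adjusted p = 4.74e-05). With all members its edgeR adjusted p was 0.053. It had a UMI in 7.10% and 5.88% of vehicle members and 85.7% and 91.3% of TAK-981 members, or 3.28%, 4.71%, 50% and 60.9% at 500 UMIs per barcode. In the Ccl3, Hcar2 and Cd274 class the shares were 11.8%, 9.73%, 69.2% and 71.9%, while in keratin-rich barcodes the level per 10000 UMIs was 0.58, 0.56, 0.54 and 0.63, nearly flat.

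Other genes that rose had varied roles. Itch, a ubiquitin ligase, had CPM values of 114 and 83.7 with Cremophor, against 1199 and 542 in the TAK-981 mice. Ifi27l2a, another interferon-induced gene, stood at 658, 83.7, 1438 and 3106 CPM in vehicle 1, vehicle 2, TAK-981 1 and TAK-981 2. Hspa1b, an inducible heat shock protein 70, rose as 1 of 9 list genes, from 24.4 and 27.9 to 300 and 325 CPM. The gene model Gm12840 rose too, with TAK-981 1 at 2577 CPM and TAK-981 2 at 289 CPM.

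Transcripts of 3 pancreatic acinar enzymes, products of exocrine cells, also rose in the members. Ctrb1 had 0 UMIs in both vehicle libraries and 54 under TAK-981, at least 100-fold higher against a floor of 3 UMIs over the vehicle group, and Try5 had 0 and 32, at least 59.5-fold higher. TAK-981 1 held 50 and 29 of these UMIs and TAK-981 2 held 4 and 3, so the bound for Ctrb1 was 11.7-fold with TAK-981 2 alone. Prss2 had CPM values of 65.0 and 27.9 with Cremophor, against 1379 and 108 in the TAK-981 mice. Trypsin genes are near-identical copies, so the split between Prss2 and Try5 is uncertain, and both were singled out after their values were seen. Summed over 12 acinar markers, of which 11 were found and Amy2a5 was at 0, members held 0.961, 0.335, 69.2 and 6.70 per 10000 UMIs and keratin-rich barcodes 1.92, 0.055, 15.2 and 55.7. Acinar transcripts stood higher with TAK-981 in both kinds of barcode, and their part in the other differences was not tested.

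Granule protein genes were lower under TAK-981 once the deep barcodes were left out. Of 12 list genes tested, 6 fell and 0 rose, with a median log2 fold change of -2.39, the same with genes at 0 set to their bounds. With all members 0 of 15 passed, with a median of -0.58. Of these 15, 12 had a negative log2 fold change and 7 an unadjusted p below 0.05. Leaving out the deep barcodes removed the only granule-rich TAK-981 member, which held 270 UMIs of Ngp. Most of the 17 granule-rich cells of vehicle 1 stayed in. Among the members kept, Ngp had 1474 and 40 UMIs in vehicle and none under TAK-981. Chil3, a chitinase-like secreted protein, had 195 and 237 and none. The Ngp count of 0 follows from the choice of barcodes left out, so no bound is given for Ngp. Among the members kept, Chil3 was at least 25.8-fold lower against a floor of 3 UMIs over the TAK-981 group. With vehicle 2 as the only vehicle library this bound was 32.7-fold. With all members, the log2 fold change of Chil3 ran from -2.17 to -0.77 when 1 library was left out. For Cybb, the catalytic subunit of the NADPH oxidase, it ran from -1.09 to 2.09 with all members when 1 library was left out. Without the deep barcodes Cybb had 98 and 11 UMIs in vehicle and none under TAK-981, at least 6.51-fold lower, or 1.52-fold with vehicle 2 alone. Cybb passed in 1 of the 3 fits that left out a library and could test it.

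The set of 17 granule-rich cells of vehicle 1 bears on these genes. Ngp stood at 11979.5 CPM in vehicle 1 against 372 CPM in vehicle 2. In vehicle 1 Chil3 had a UMI in 17 of these 17 cells and in 1 of the other 166, and Cybb in 17 and 8. In vehicle 2, with 1 granule-rich member, 47.6% of members had a Chil3 UMI, and Chil3 stood at 1585 CPM in vehicle 1 and 2205 CPM in vehicle 2. Lysozyme, Lyz2, had CPM values of 3552 and 754 with Cremophor, against 539 and 217 in the TAK-981 mice, and Lcn2 stood at 4608, 1684, 1019 and 181 CPM in library order. With all members Lyz2 turned to a positive log2 fold change of 1.38 and that of Ngp was -1.10. The deep TAK-981 barcodes held 303 and 138 UMIs of Lyz2, and the one of TAK-981 2 held 270 of Ngp.

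Some regulators and secreted factors of inflammation were lower as well. Tnfaip2, a TNF-induced gene, had CPM values of 2365 and 1805 with Cremophor, against 479 and 325 in the TAK-981 mice (log2 fold change -2.40 ± 0.52 SE, edgeR adjusted p = 0.00778). Wfdc21, a whey acidic protein family gene of neutrophils, stood at 2674, 1851, 360 and 397 CPM in library order. Icam1, an adhesion molecule, and Rel, an NF-kB subunit, fell as 2 of the 16 NF-kB feedback genes tested, each with 0 and 1 UMIs under TAK-981. Of those 16, 15 had a negative log2 fold change, with a median of -1.03 against -0.10 over all genes.

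The main cytokine transcripts did not pass. Il1b had CPM values of 25593 and 22626 with Cremophor, against 35062 and 37566 in the TAK-981 mice (log2 fold change 0.59 ± 0.37 SE, edgeR adjusted p = 0.442). Cxcl2 stood at 35711, 36413, 20678 and 41973 CPM, with both vehicle values between the TAK-981 values (edgeR adjusted p = 0.865). Of 6 chemokine genes 0 passed, with 1 at an unadjusted p below 0.05. Of 6 SUMO pathway genes tested 0 passed and 1 had an unadjusted p below 0.05. Sumo2, which encodes a SUMO protein, stood at 122, 158, 120 and 217 CPM in library order, so the groups overlapped.

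Among genes that fell, 18 encode ribosomal proteins, of 80 tested, and many have short transcripts. Rps29 had CPM values of 2682 and 2251 with Cremophor, against 59.9 and 253 in the TAK-981 mice, and Rpl38 stood at 1260, 1256, 59.9 and 108 CPM in library order. Length was taken from the longest annotated transcript of each gene, so a gene with a short main transcript can count as long. Those under 800 nt made up 5.4% of the genes tested, 16.7% of those that rose and 33.3% of those that fell. They included 10 of the 18 ribosomal protein genes that fell and 18 of the 80 tested. Without genes under 800 nt by this measure 33 of 1700 genes passed, 20 higher and 13 lower. Gm42418 fell from 132856 and 37000 CPM to 15284 and 7477 CPM, and mitochondrial transcripts such as mt-Nd4 rose from 796 and 800 to 5334 and 1481 CPM, so marks of RNA content moved with the groups. Their part was not tested, and mt-Nd4 was chosen after its values were seen.

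Thinning every barcode to 500 UMIs, an alternative for equal depth, gave 30 genes of 1279. Of the 84 genes above, 72 could be tested there and 23 were called, all 23 in the same direction, which is 27.4% of the 84 and 76.7% of the 30. They were Rtp4, Rsad2, Isg20, Ifi27l2a, Atp1b3, Tnfaip2, Chil3, Esd, Gm12840 and the acinar gene Ctrb1, together with genes of the kinds described above as marks of RNA content or short transcripts. Those were Rpl36, Rpl38, Rpl39, Rpl41, Rps27, Rps29, Gm42418, AY036118, Lars2, mt-Nd4, mt-Co3, mt-Atp6 and mt-Cytb, and their part was not tested. Of 21 type I interferon genes tested at equal depth 3 rose (Rtp4, Rsad2 and Isg20).

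Set beside the Ccl3, Hcar2 and Cd274 class of the same tumours, members differed in some granule, chemokine, glycolysis and heat shock genes, without barcodes over 5000 UMIs. There 3 of 9 granule genes were higher in members, and 5 of 8 chemokine genes, 13 of 25 glycolysis and hypoxia genes and 4 of 11 heat shock genes were lower. With all cells 3 of 12 granule genes were higher and 1 of 8 chemokine genes was lower. Of 26 glycolysis and hypoxia genes and of 11 heat shock genes 0 passed with all cells. The 2 classes were compared within each library, by edgeR with library as a block, leaving out the genes that the rule used. With all cells, 9 of 2620 genes passed (0.344% called), 300 had an unadjusted p below 0.05 and DESeq2 called 20. Anxa1, Pglyrp1, Ltf and Ngp were higher in members (0.153% called), and Arg1, Ccl4, H2-Eb1, Hmox1 and Tgif1 lower (0.191%). Without barcodes over 5000 UMIs in either class, 188 of 1916 passed (9.81% called), 56 higher (2.92%) and 132 lower (6.89%). Since the split was made on these same cells, the values describe what goes with it.

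Pglyrp1, a peptidoglycan-binding granule protein, stood at 1286, 932, 608 and 877 CPM in members and 209, 248, 110 and 293 CPM in the other class, in the order vehicle 1, vehicle 2, TAK-981 1 and TAK-981 2. It was higher in 4 of 4 libraries by a log2 fold change of 2.15 ± 0.27 (SE, edgeR adjusted p = 9.98e-08) and passed without any single library. Ifitm6, Lrg1 (a secreted leucine-rich glycoprotein of granules) and Trem3 were likewise higher in 4 of 4 libraries, by 3.34, 1.81 and 1.48. Ifitm6 was at 1.97 and did not pass without vehicle 1 (edgeR adjusted p = 0.113), and in that library it had a UMI in 15 of the 17 granule-rich members and 11 of the other 166. Of 9 granule proteins tested 0 were lower, and of 18 neutrophil markers outside the rule 4 were higher and 0 lower. The granule genes higher in members were Lcn2, Pglyrp1 and Ltf. When 1 library was left out, their lowest log2 fold changes were 0.30, 1.86 and 3.84. Wfdc21, 1 of the 4 neutrophil markers that were higher, fell to 0.18 in that way. Anxa1, the lipid-binding protein annexin A1, stood at 1428 against 80.6 CPM in vehicle 1 but at 60.8 against 110 in TAK-981 1, so it was higher in 3 of 4 libraries.

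Ccl4, a chemokine, stood at 310, 491, 608 and 381 CPM in members and 5626, 1930, 4217 and 6917 CPM in the other class. It was lower in 4 of 4 libraries, by a log2 fold change of -3.26 ± 0.27 (SE, edgeR adjusted p = 3.8e-13). Of 8 chemokine genes tested 5 were lower (Ccl4, Ccl2, Ccl6, Ccrl2 and Cxcl2) and 0 higher. Il1b did not pass, at 27934, 24371.5, 35562 and 39648 CPM against 26314, 19068, 33246 and 28058 CPM (edgeR adjusted p = 0.326).

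Genes of glycolysis and the hypoxia response were lower in members for 13 of 25 tested and higher for 0, with a median log2 fold change of -0.90 against 0.00 over all genes. Ldha (lactate dehydrogenase) stood at 417, 521, 426 and 686 CPM against 1039, 1513, 1917 and 1823 CPM, and Hk2 (hexokinase) at 328, 220, 60.8 and 152 against 1769, 587, 329 and 391 CPM. Hmox1, the haem oxygenase, and Spp1, the secreted phosphoprotein osteopontin, were lower in 4 of 4 libraries by log2 fold changes of -2.23 and -1.84. Of 11 heat shock protein genes 4 were lower and 0 higher. The number of genes called fell to 18 without vehicle 1 and 61 without vehicle 2 and was 132 and 184 without TAK-981 1 and TAK-981 2, and the thinned libraries gave 137, of which 91 were among the 188.

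**Figure D5:**
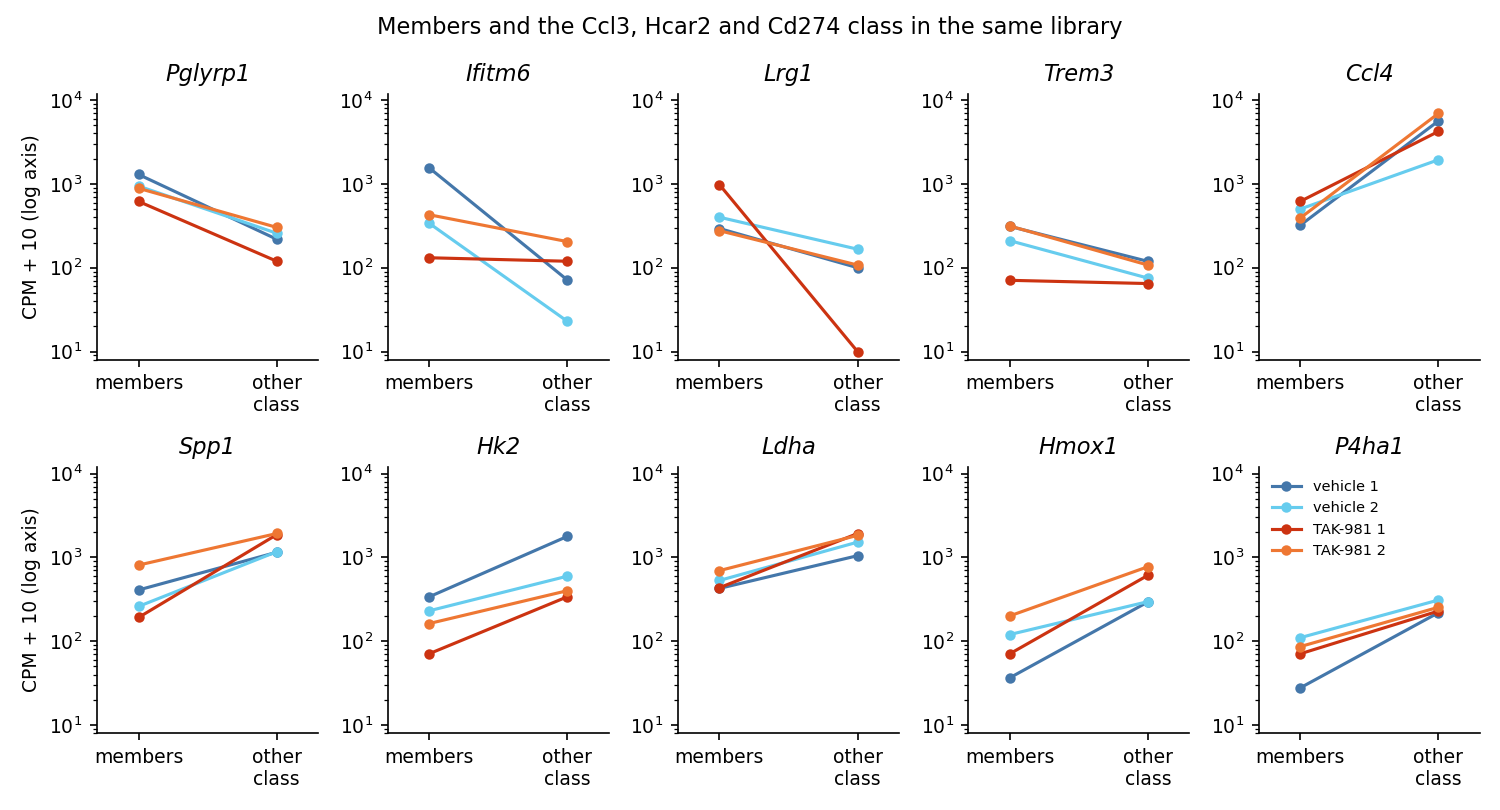
CPM plus 10 on a log axis for 10 of the named genes in members and in the Ccl3, Hcar2 and Cd274 class, with a line joining the 2 values of each library. Pglyrp1 falls and Ccl4 and Ldha rise from members to the other class in all 4 libraries, and Ifitm6 and Trem3 are nearly level in TAK-981 1.

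Whether TAK-981 acted differently on the 2 classes was tested by the interaction of class and treatment. With all cells 0 of 3907 genes passed (0% called) in edgeR, 98 had an unadjusted p below 0.05 (2.51%), and DESeq2 called 0. Without barcodes over 5000 UMIs, 2 of 2732 passed (0.0732% called), Ifitm6 at -3.66 ± 0.81 (log2, SE, edgeR adjusted p = 0.0192) and Lcn2 at -2.69 ± 0.62 (adjusted p = 0.0194), both with a lower effect in members. These genes also mark the granule-rich members of vehicle 1, where Ifitm6 stood at 34.7 per 10000 UMIs in the 17 cells and 1.09 in the other 166, and Lcn2 at 125 and 2.89. The part of those cells in the 2 calls was not tested. Ifitm6 is also on the type I interferon list, where it was the 1 gene of 40 tested that passed. Of those 40, 26 had a positive difference of effects and 14 a negative one. For other genes of that list the difference was 0.28 ± 0.92 for Rtp4, 0.66 ± 0.51 for Isg15 and 0.84 ± 1.19 for Ifit3, each log2 with SE, none of which passed. With errors of this size the 2 classes are not shown to act alike.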

How the data were processed

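The authors deposited UMI counts for each gene and barcode. The submitters' processing notes name Cell Ranger 6.1.2 and the build mm10. No deposited column was left unused (columns not used: 0). Members were found by the rule in the report, and the members and gene lists were chosen with earlier results of these data known. Counts were summed per library and tested with edgeR 4.0.16 in R 4.3.3 (genes with at least 5 counts by filterByExpr, TMM, Benjamini-Hochberg over all genes tested). The class comparison had library as a block. DESeq2 1.42.0 was an alternative. Replicate libraries differed by more than sampling noise (chi-squared per degree of freedom 6.47 and 7.18). Replicate numbers of vehicle and TAK-981 mice share only a number. Nothing says whether the mice shared a batch, so p-values measure the spread between these samples. Named genes passed the test, had at least 40 UMIs and did not overlap between groups, or moved the same way in 4 of 4 libraries, up to 12 per direction by size, with called list genes and up to 4 of the most abundant per list. Doublets were scored with Scrublet in scanpy 1.11.5 and kept in the main fit. The highest scores were called, up to a number set by an assumed rate of 0.8% per 1000 kept barcodes. Scripts were tested on simulated data. Alternatives were other scalings and filters, thinning to 500 UMIs, other limits per barcode and leaving out each library.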

Additional observations from a re-analysis of the deposited data

How the results depend on the processing

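The difference in the share of members among kept barcodes kept its sign under every alternative run (-4.20 to -0.078 percentage points). The value of -0.078 came with at least 1000 UMIs per barcode. There the groups overlapped and both TAK-981 shares lay above that of vehicle 2. The share among both neutrophil classes turned to 5.275 when thinned, and leaving out 1 library gave -19.77 to 6.412. For TAK-981 against vehicle the count of genes called was 0 with DESeq2 size factors, with at least 1000 UMIs, at most 10% mitochondrial UMIs, without Scrublet calls and without members holding a split gene, 22 with DESeq2, 112 with no filter on low counts, 30 when thinned and 2 with at least 4 of the 8 neutrophil genes. It was 84 without barcodes over 5000 UMIs, 48 with DESeq2 on those, 2 without transcripts under 800 nt, 33 without both, and 1 to 45 when 1 library was left out. Without deep barcodes and vehicle 1 it was 87, and with vehicle 2 left out instead 44. The replicate block gave 0 with all members and 93 without deep barcodes, and the crossed pairing 8, with a correlation of same-numbered deviations of -0.108 and, without deep barcodes, -0.005. For the class comparison the count of 9 became 188 without deep barcodes, 77 with DESeq2 on those, 20 with DESeq2, 59 with no filter, 137 when thinned and 1 without the library block. It was 2 with at least 4 neutrophil genes, 0 with at least 1000 UMIs, with at most 10% mitochondrial UMIs and without Scrublet calls, and 0 to 75 when 1 library was left out. Without deep barcodes it was 18, 61, 132 and 184 when vehicle 1, vehicle 2, TAK-981 1 or TAK-981 2 was left out as well. The count for the difference of effects became 4 with no filter, 2 without deep barcodes and 0 to 11 when 1 library was left out. The log2 fold change of Ngp ran from -12.48 without TAK-981 2 to 3.235 without vehicle 1, and that of Ltf from -10.64 to 0.2516 for the same libraries. That of Lyz2 turned from 1.375 to -2.588 without deep barcodes, to -2.301 with the block on those, -2.607 with DESeq2, -2.657 without short transcripts, -1.087, -3.429, -3.296 and -2.093 when vehicle 1, vehicle 2, TAK-981 1 or TAK-981 2 was left out as well, and -0.6762 when thinned. Other than where cells or genes left out account for it by construction, the cause was not tested. Of 1155 values of 56 gene results under alternatives, 766 kept direction and side of the threshold, 67 lost the call, 311 gained it and 11 reversed. Where a left-out library leaves a group with 1 mouse, that mouse is assumed to vary like the other group. Depth limits the TAK-981 members: 1 UMI there is 59.9 CPM in TAK-981 1 and 36.1 CPM in TAK-981 2.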

Other observations

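A further 126, 108, 6 and 7 barcodes of vehicle 1, vehicle 2, TAK-981 1 and TAK-981 2 had at least 3 of the 8 neutrophil genes but met the rule of neither class. No comparison was made with them.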
